A study of Mus musculus with 4 samples.

Results

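Replicating T cells, those whose messenger RNA is rich in the genes that copy DNA, were described among CD4 T cells of the small intestine. A member held at least 1 UMI (unique molecular identifier, the tag that marks 1 captured transcript) of at least 5 of 8 replication genes, and 0 UMIs of the mitotic genes Ube2c, Birc5 and Ccnb2. The 8 genes were Mcm2, Mcm3, Mcm5, Mcm7, Hells, Uhrf1, Lig1 and Gins2. The rule chose 414 of 22534 cells, which were 101, 126, 84 and 103 cells in libraries 1 to 4, or 1.83% ± 0.26 of the cells of a library (SD, n = 4 libraries), between 1.51% and 2.13%. Cells came from wild-type C57Bl/6 mice, out of the lamina propria, which is the loose layer that lies beneath the gut lining, and were sorted for CD45, CD3 and CD4 without the dead-cell dye 7AAD. All 4 libraries are of this 1 group, no treatment is named, and the labels give neither age nor sex. The design text speaks of 4 mice, but no label ties a library to a mouse, so libraries are the replicates. The p-values weigh a difference between classes against how it varied over libraries. Replicating cells were set against 2 other classes of the same libraries. Mitotic cells (456 cells) held at least 2 of the 3 mitotic genes and at least 2 of the 8 genes. Low-replication cells (19338 cells) held at most 1 of the 8. The class names stand for these rules, and the cycle phase of the cells was not tested.

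Before a cell divides it copies its genome a single time. In G1, the origin recognition complex, Cdc6 and Cdt1 load rings of the Mcm2 to Mcm7 proteins onto DNA, a step called licensing. In S phase, the kinases Cdc7 with Dbf4 and Cdk2 with cyclin E switch these rings on by adding Cdc45 and the GINS complex, and polymerases then copy both strands around the sliding clamp Pcna. Genes for these proteins are switched on by E2F factors once cyclin D kinases have loosened the hold of the retinoblastoma protein. Mitotic genes are switched on later, in G2, through promoters that often carry a CHR element bound by the DREAM and B-Myb complexes. T cells rest in G0 for most of their life and enter this cycle after antigen or cytokine signals.

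The promoters of 6 of these genes are shown because the replication genes and the mitotic genes differ in the letters they carry. Each holds 250 bases before and 50 bases after the gene start (RefSeq, GRCm38.p6), 5′ to 3′ on the gene's strand. Capitals mark the E2F letters TTTCCCGC, TTTGGCGC, TTTCGCGC or TTTGCCGC on either strand, and in Mki67 the CHR letters TTTGAA or TTCGAA on either strand. Neighbouring matches can overlap, so that 1 run of capitals can hold 2 matches. Mcm3 and Mcm5 were used by the rule, and Mcm6, Cdc6, Pclaf and Mki67 were not.
Mcm3 (chr1:20820263-20820562, - strand): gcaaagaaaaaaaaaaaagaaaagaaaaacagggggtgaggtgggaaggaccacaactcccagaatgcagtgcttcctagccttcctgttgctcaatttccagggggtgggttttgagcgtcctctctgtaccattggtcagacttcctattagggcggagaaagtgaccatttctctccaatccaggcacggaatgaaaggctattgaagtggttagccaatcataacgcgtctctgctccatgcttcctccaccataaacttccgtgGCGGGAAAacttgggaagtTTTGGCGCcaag
Mcm5 (chr8:75109259-75109558, + strand): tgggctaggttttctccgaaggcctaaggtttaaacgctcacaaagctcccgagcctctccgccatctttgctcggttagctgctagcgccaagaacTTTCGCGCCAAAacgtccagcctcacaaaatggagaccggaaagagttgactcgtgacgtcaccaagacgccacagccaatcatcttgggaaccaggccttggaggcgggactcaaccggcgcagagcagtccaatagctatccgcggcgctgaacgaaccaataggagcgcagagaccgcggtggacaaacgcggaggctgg
Mcm6 (chr1:128359656-128359955, - strand): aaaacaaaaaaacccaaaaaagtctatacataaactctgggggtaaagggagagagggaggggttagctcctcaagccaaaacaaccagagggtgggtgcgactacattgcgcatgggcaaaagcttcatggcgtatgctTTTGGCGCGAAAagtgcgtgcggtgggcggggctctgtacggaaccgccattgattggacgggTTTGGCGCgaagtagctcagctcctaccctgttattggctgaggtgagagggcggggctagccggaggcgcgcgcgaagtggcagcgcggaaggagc
Cdc6 (chr11:98907901-98908200, + strand): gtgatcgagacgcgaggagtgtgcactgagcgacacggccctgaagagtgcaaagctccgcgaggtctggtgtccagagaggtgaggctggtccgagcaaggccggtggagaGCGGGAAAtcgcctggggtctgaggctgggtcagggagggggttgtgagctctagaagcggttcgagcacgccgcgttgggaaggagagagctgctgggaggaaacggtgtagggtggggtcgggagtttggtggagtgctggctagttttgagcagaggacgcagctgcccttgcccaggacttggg
Pclaf (chr9:65890073-65890372, + strand): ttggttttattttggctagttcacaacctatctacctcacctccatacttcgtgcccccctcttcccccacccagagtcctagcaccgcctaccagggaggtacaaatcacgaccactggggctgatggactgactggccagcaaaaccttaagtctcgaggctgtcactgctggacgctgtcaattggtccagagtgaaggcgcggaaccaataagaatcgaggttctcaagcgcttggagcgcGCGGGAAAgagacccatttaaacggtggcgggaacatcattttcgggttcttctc
Mki67 (chr7:135716330-135716629, - strand): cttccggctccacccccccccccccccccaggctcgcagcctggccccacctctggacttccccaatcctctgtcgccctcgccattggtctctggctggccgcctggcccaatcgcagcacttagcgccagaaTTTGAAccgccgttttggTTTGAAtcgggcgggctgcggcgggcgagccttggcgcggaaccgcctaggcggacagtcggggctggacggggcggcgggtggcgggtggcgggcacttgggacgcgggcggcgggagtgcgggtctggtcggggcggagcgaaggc

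E2F letters stood in the promoters of 6 of the 7 rule genes that have a promoter in the table (85.7%), where Gins2 has none. They stood in 2.26% of all 32851 promoters of this length, and in 2.6% of the 27025 genes that these promoters belong to. Mcm6 had 3 matches, the Mcm3 and Mcm5 promoters had 2 each, and Cdc6 and Pclaf had 1 each. Among genes that the rule did not use, 7 of 13 licensing genes (53.8%), 9 of 26 polymerase and fork genes (34.6%) and 8 of 22 genes of G1/S control (36.4%) held E2F letters. By contrast, 1 of 20 nucleotide synthesis genes (5%) and 3 of 45 genes of G2 and mitosis (6.67%) did, against 369 of 7018 genes tested (5.26%). CHR letters stood in 33 of 45 promoters of G2 and mitosis (73.3%) and in 0 of 13 licensing promoters. The share with CHR letters was 16.8% of genes tested and 19.2% of all promoters. CHR letters also stood in 4 of 8 origin firing promoters (50%) and 8 of 17 promoters of chromatin assembly and copying (47.1%). Of the genes higher in replicating than in low-replication cells, 167 of 1653 held E2F letters (10.1%). The share was 28 of 124 (22.6%) among genes higher by at least 2 on the log2 scale, 33 of 1172 (2.82%) among genes that were lower, and 169 of 4193 (4.03%) among genes that did not pass the test. A match describes the letters in these windows and is not evidence of binding.

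**Figure D1:**
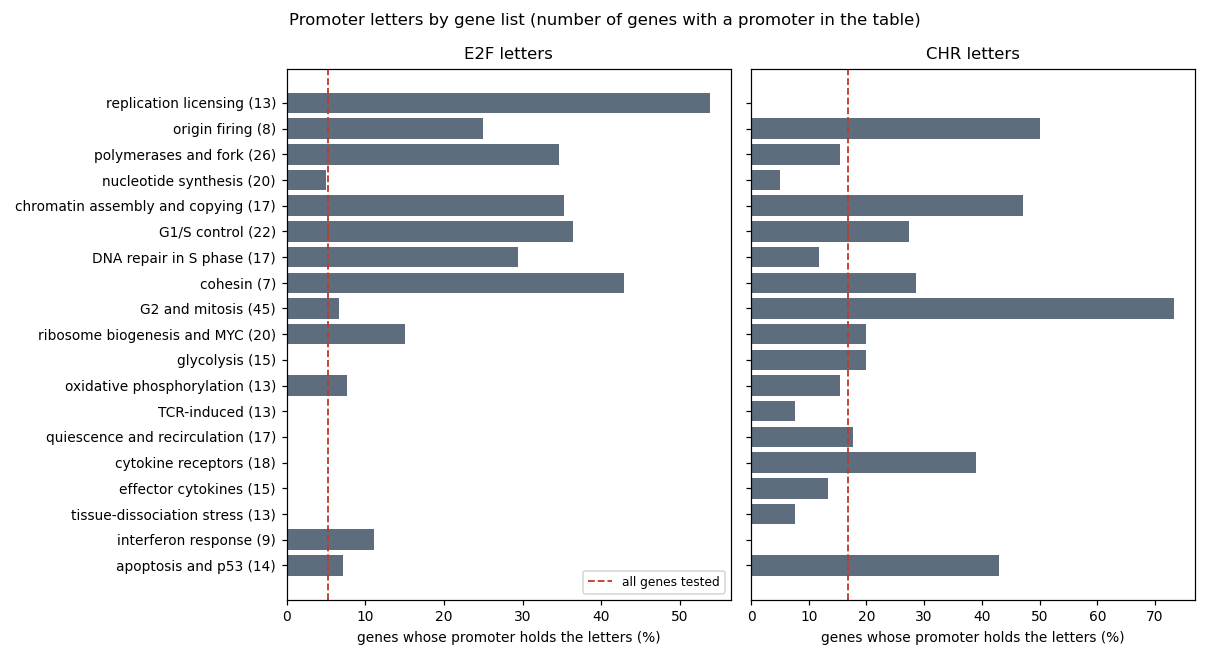
Share of genes (%, horizontal axis) whose promoter holds E2F letters (left) or CHR letters (right), per gene list, with the number of genes that have a promoter in brackets. The dashed line is the share of all genes tested, 5.26% for E2F and 16.8% for CHR. Licensing genes are high for E2F (53.8%) and at 0 for CHR, and genes of G2 and mitosis are high for CHR (73.3%).

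The values that chose the cells are given here as a description, with no test. Mcm3, a subunit of the helicase ring, was detected in 93.6% ± 3.06 of replicating cells, against 5.61% ± 0.417 of low-replication cells. Its summed level was 381, 328, 372 and 340 CPM (UMIs per 1e6 UMIs of the class) in replicating cells of libraries 1 to 4, against 13.7, 16.5, 15.2 and 13.03 CPM in low-replication cells. Mcm5, another subunit, was detected in 88.6% of replicating cells, and Gins2, of the GINS complex, in 57.7%. Uhrf1, which guides the copying of DNA methylation, was detected in 53.04% of replicating cells and 1.17% of low-replication cells. Mcm2 (89.3%), Mcm7 (83.2%), the ligase Lig1 (80.9%) and the remodeller Hells (72.1%) completed the 8. The 4 markers Mcm3, Mcm5, Uhrf1 and Gins2 summed to between 737 and 835 CPM in replicating cells, against between 28.7 and 32.6 CPM in low-replication cells. Cells just inside the limit, with 5 of the 8 genes (145 cells), and just outside it, with 4 (165 cells), differed by degree. Mean levels over libraries inside and outside were 146 and 93.5 CPM of Pcna, 51.2 and 23.0 CPM of Tyms, and 19.1 and 8.64 CPM of Rrm2.

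**Figure D2:**
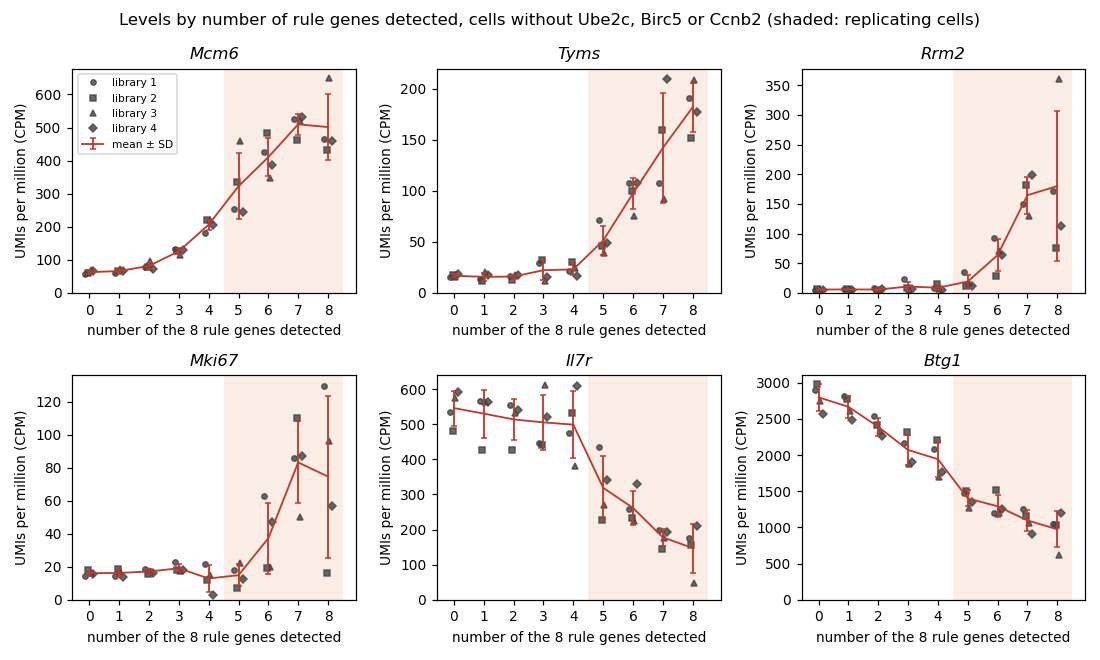
Level (CPM, vertical axis) of 6 genes that the rule did not use, against the number of the 8 rule genes detected in a cell (horizontal axis), in cells with 0 UMIs of Ube2c, Birc5 and Ccnb2. Points are libraries, the line is the mean and bars are SD, and shading marks the replicating cells. Tyms averaged 16.8 CPM in cells with none of the 8 and 182 CPM in cells with all 8, and the classes with 7 and 8 genes held as few as 17 and 11 cells in a library.

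The cells carried T cell transcripts. The libraries held between 23918884 and 28783972 UMIs each. All 414 held at least 1 UMI of Cd3d, Cd3e, Cd3g, Trac, Trbc1 or Trbc2, and 8 T cell markers summed to between 4823 and 4987 CPM in replicating cells, against between 5799 and 6034 CPM in low-replication cells. Median depth was between 7469 and 8816 UMIs in replicating cells, between 11492 and 14031 UMIs in mitotic cells and between 3550 and 4071 UMIs in low-replication cells. The rule favours deep cells by asking for 5 detected genes, and its mitotic limit favours shallow ones. Results were therefore repeated in a depth window, the 10th to 90th percentile of the UMI totals of the replicating cells. They are given below for some genes and lists, and not for every call that ended there. The window was applied to replicating and low-replication cells, and mitotic cells were left as they were. Inside it the medians were still 7469 to 8816 UMIs for replicating and 5819 to 6822 UMIs for low-replication cells. Depth was thus brought nearer, not made equal. Plasma cell markers (Jchain, Igha, Igkc, Mzb1, Sdc1 and Xbp1) summed to 89.1, 2263, 77.8 and 2808 CPM in replicating cells, against 201, 882, 446 and 942 CPM in low-replication cells. Between 0 and 3 of the 6 were at 0 in replicating cells of a library. At least 50 UMIs of Jchain, Igha and Igkc together were held by 0, 1, 0 and 2 replicating cells and 2, 8, 3 and 7 low-replication cells. A filter for a T cell transcript and 0 UMIs of Cd79a, Jchain, Lyz2 and Epcam was an alternative, called T cells only. It kept 349 of 414 replicating, 400 of 456 mitotic and 17683 of 19338 low-replication cells, which differed in depth. B cell markers summed to between 10.0 and 98.4 CPM in replicating cells, with 3 or 4 of 6 at 0, against between 31.6 and 43.5 CPM in low-replication cells. Of 22632 distinct barcodes, 270 occurred in more than 1 library.

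Over all genes outside the rule, 2055 of 8963 were higher in replicating than in low-replication cells (22.9%) and 1536 were lower (17.1%), together 40.1%, at an adjusted p under 0.05 in edgeR's quasi-likelihood test. These shares are the background for each list below. Against mitotic cells 787 genes were higher (8.78%) and 1068 were lower (11.9%), together 20.7%. Scaled by library size alone, the split against mitotic cells turned to 1038 higher and 883 lower. Cells chosen on 8 replication genes had to be high in genes made in the same phase. For these lists the p-values show how alike the class difference was over libraries, and they support nothing about the choice of cells.

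Licensing genes stood high in replicating cells. Of 15 genes, 12 were higher than in low-replication cells and none was lower, with a median log2 fold change of 1.86, against -0.0047 over all genes tested. Mcm6 (chr1:128331590-128359664, mm10), a helicase subunit outside the rule, had 406, 411, 480.3 and 386 CPM in replicating cells of libraries 1 to 4, against 58.6, 60.8, 69.7 and 64.98 CPM in low-replication cells. The classes did not overlap in any library, with a log2 fold change of 2.77 ± 0.08 (SE) and an adjusted p of 1.36e-14 in edgeR. Cdc6, which loads the rings, had 27.02, 24.1, 38.9 and 34.1 CPM in replicating cells, against 0.369, 0.396, 0.264 and 0.202 CPM in low-replication cells. That was 116 UMIs in replicating cells and 25 UMIs in a much larger number of low-replication cells, and the log2 fold change was 6.61 ± 0.28 (SE, edgeR adjusted p = 1.17e-12). Mcm10, which helps to start the helicase, had 33 UMIs in replicating cells and 11 in low-replication cells. Its level in replicating cells was 6.003, 8.36, 20.1 and 3.005 CPM, highest in library 3. Cdt1, the partner of Cdc6, and Gmnn, its inhibitor geminin, were both higher, with log2 fold changes of 2.10 ± 0.12 and 2.35 ± 0.11 (SE). Orc1, the origin subunit made in late G1, was higher by 2.46 ± 0.24 (SE) on the same scale, while Orc2, Orc4 and Orc5 lay between -0.27 and 0.31 and did not pass the test.

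Against mitotic cells the licensing list divided. Mcm6 (406, 411, 480.3 and 386 CPM in replicating cells, against 358, 317, 271 and 274 CPM in mitotic cells), Mcm4 and Orc3 were higher, with log2 fold changes of 0.40 ± 0.09, 0.36 ± 0.07 and 0.41 ± 0.14 (SE). Mcm10, Gmnn and Orc6 were lower, at -1.45 ± 0.38, -0.76 ± 0.10 and -0.49 ± 0.11 (SE). The other 9 of 15 genes did not pass, among them Cdc6 (-0.37 ± 0.20, adjusted p = 0.216 in edgeR). With at least 4 of the 8 genes asked for in place of 5, Mcm6 no longer passed against mitotic cells (log2 fold change 0.17, edgeR adjusted p = 0.128). Orc3 did not pass in the depth window (0.39, edgeR adjusted p = 0.117), and Mcm10 did not pass without library 1 (adjusted p = 0.0931) or library 4 (adjusted p = 0.0791). With at least 6 of the 8 genes asked for, Orc6 did not pass (-0.27, edgeR adjusted p = 0.126). After thinning to 3000 UMIs before the rule, neither Gmnn (-0.28, edgeR adjusted p = 0.464) nor Orc6 (-0.13, adjusted p = 0.836) passed.

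Genes that fire origins and build the fork rose with them. Of 12 firing genes, 11 were higher than in low-replication cells and none lower, with a median log2 fold change of 1.61. Cdc45, the helicase partner, had 35.02, 33.4, 49.6 and 26.04 CPM in replicating cells, 58.5, 59.7, 55.5 and 58.4 CPM in mitotic cells and 1.11, 1.14, 1.53 and 1.51 CPM in low-replication cells. Every library placed replicating cells above low-replication cells (log2 fold change 4.78 ± 0.22) and below mitotic cells (-0.78 ± 0.17, both ± SE). With at least 6 of the 8 genes asked for, Cdc45 no longer passed against mitotic cells (-0.45, edgeR adjusted p = 0.11). Nor did it pass after thinning to 3000 UMIs before the rule (-0.11, edgeR adjusted p = 0.888). Dbf4, the activator of the kinase Cdc7, had 54.03, 46.4, 36.2 and 49.1 CPM in replicating cells, 128, 128, 125 and 134 CPM in mitotic cells and 56.7, 47.99, 45.4 and 41.3 CPM in low-replication cells. Its level in replicating cells was not separable from that in low-replication cells (log2 fold change 0.02 ± 0.12 (SE), edgeR adjusted p = 0.919), whereas Cdc7 itself was higher at 1.69 ± 0.19 (SE).

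Of 32 polymerase and fork genes, 31 were higher than in low-replication cells, none was lower, and Rnaseh2c did not pass. The median log2 fold change was 2.38. Prim1, the primase that starts each strand, had 80.05, 78.9, 93.9 and 78.1 CPM in replicating cells, against 8.03, 7.57, 7.38 and 8.33 CPM in low-replication cells, and a log2 fold change of 3.44 ± 0.11 (SE). Pole, the leading-strand polymerase, was higher by 4.44 ± 0.22, and Timeless, which holds helicase and polymerase together, by 3.70 ± 0.13 (SE). Pcna had 212, 174, 241 and 160.3 CPM in replicating cells, against 72.7, 67.2, 66.2 and 65.8 CPM in low-replication cells. Its log2 fold change was 1.56 ± 0.08 (SE), and low-replication cells held it at 67.99 ± 3.202 CPM (SD, n = 4). Pclaf, the PCNA clamp associated factor, had 221, 112, 267 and 168 CPM in replicating cells, 1052, 1039, 1059.8 and 932 CPM in mitotic cells and 2.08, 2.72, 1.63 and 1.51 CPM in low-replication cells. It thus stood far above low-replication cells (6.59 ± 0.20) and well below mitotic cells (-2.502 ± 0.13, both log2 ± SE). Against mitotic cells 2 fork genes were higher (6.25%), Timeless (0.63 ± 0.13) and Pole4 (0.23 ± 0.06), and 12 of 32 were lower (37.5%). Over all genes tested these shares were 8.78% and 11.9%. When each cell was thinned to 3000 UMIs before the rule was applied, 1 of 24 fork genes tested was lower and 0 were higher. The median log2 fold change against mitotic cells was then -0.031 in place of -0.23. Pole4 did not pass without library 1 or 2 (adjusted p = 0.0543 and 0.067).

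Nucleotide synthesis genes split by class. Against low-replication cells 20 of 22 were higher, and Samhd1, which breaks down the building blocks of DNA, was the only one lower (log2 fold change -0.47 ± 0.09, SE). Rrm2, the regulated subunit of ribonucleotide reductase, had 108, 67.8, 125 and 87.1 CPM in replicating cells, 634, 594, 605 and 537 CPM in mitotic cells and 6.69, 6.48, 6.28 and 4.39 CPM in low-replication cells. Rrm2 was thus lower than in mitotic cells, with a log2 fold change of -2.69 ± 0.10 (SE, edgeR adjusted p = 5.39e-13). Tk1, thymidine kinase, had 87.1, 47.4, 96.6 and 76.1 CPM in replicating cells, 217, 198, 180.3 and 189 CPM in mitotic cells and 1.29, 1.39, 0.897 and 1.11 CPM in low-replication cells. Thymidylate synthase, Tyms, followed the same order with 109.6 ± 13.9, 279 ± 10.03 and 16.6 ± 1.51 CPM (SD, n = 4 libraries each). Against mitotic cells 7 of 22 genes were lower and none was higher.

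**Figure D3:**
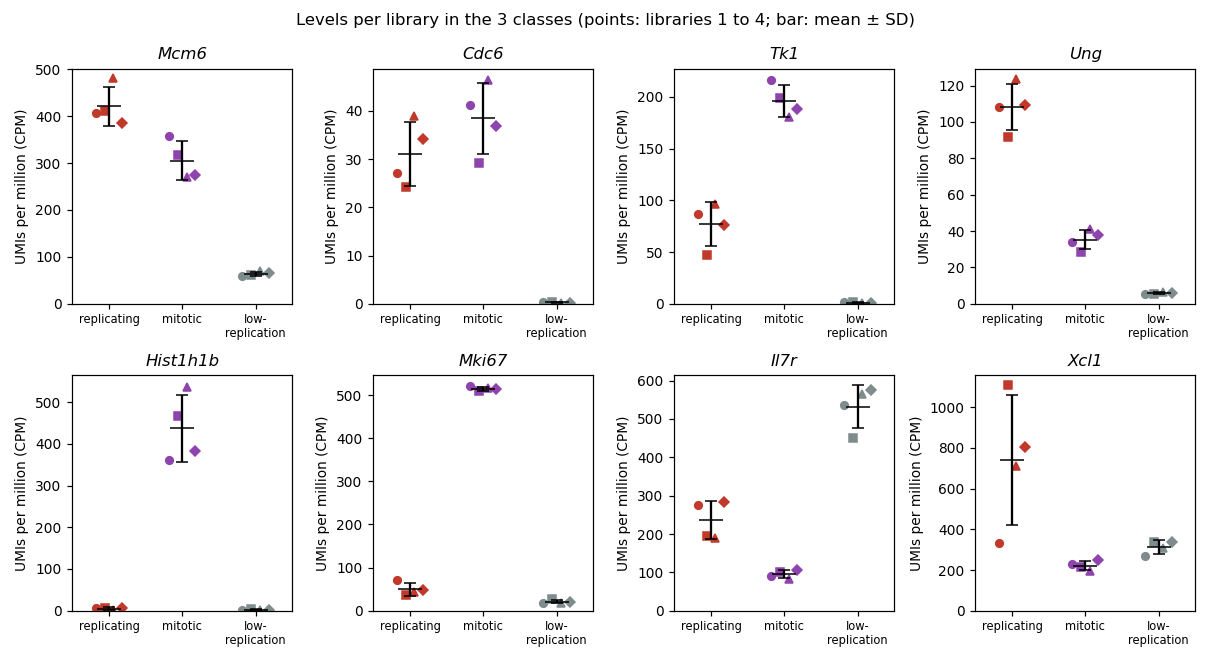
Level (CPM, vertical axis) of 8 genes in replicating, mitotic and low-replication cells; points are libraries 1 to 4, and black bars are the mean and SD. Mcm6 and Ung are highest in replicating cells, Tk1, Hist1h1b and Mki67 in mitotic cells and Il7r in low-replication cells.

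Genes that rebuild chromatin behind the fork were higher in replicating than in low-replication cells, 21 of 22, with none lower and a median log2 fold change of 1.11. Chaf1a, of the chromatin assembly factor that loads new histones, had 50.03, 47.4, 65.7 and 51.1 CPM in replicating cells, against 1.94, 2.57, 2.16 and 1.92 CPM in low-replication cells (4.67 ± 0.17, log2 ± SE). Cdca7, which recruits Hells to DNA, was higher than in low-replication cells (4.17 ± 0.12) and also higher than in mitotic cells (0.77 ± 0.12, log2 ± SE), the only gene of the 22 higher in the second comparison. H2afx, the replacement histone that marks breaks, had 81.05, 71.5, 59.03 and 62.1 CPM in replicating cells, 619.9, 630.0, 748 and 728 CPM in mitotic cells and 84.6, 81.03, 69.1 and 70.3 CPM in low-replication cells. It was the member that did not pass against low-replication cells (log2 fold change -0.10), and it was lower than in mitotic cells, with -3.36 ± 0.12 (SE) on that scale. Against mitotic cells 17 of the 22 genes were lower.

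No gene for the replication-dependent histones, which package new DNA, passed the test as higher than in low-replication cells. Of 23 listed, 16 were tested, and the linker histone gene Hist1h1c was lower (log2 fold change -0.87 ± 0.19, SE). The 16 genes summed to 118, 109.6, 92.6 and 112 CPM in replicating cells, 1984, 2383, 2733 and 2751 CPM in mitotic cells, and 120.5, 125, 119 and 139.9 CPM in low-replication cells. Replicating and low-replication cells thus lay side by side. A histone gene could pass the filter on low counts through mitotic cells alone, and the rule left out cells with mitotic genes. Nothing is therefore read from the height of the mitotic class, here or for Hist1h1b and Hist1h3c below. No count of lower genes or median is given against mitotic cells. Rrm2, Tk1 and Tyms were higher in mitotic than in replicating cells, so no class is read as a phase of the cycle. Hist1h1b, a linker histone gene, had 7.004, 5.57, 1.34 and 7.01 CPM in replicating cells, 361, 467, 537 and 382 CPM in mitotic cells and 2.54, 3.07, 1.63 and 2.63 CPM in low-replication cells. Its log2 fold change was -6.34 ± 0.21 (SE) against mitotic cells, and 1.19 ± 0.48 (SE, edgeR adjusted p = 0.0566) against low-replication cells. Hist1h3c had 0 UMIs in replicating cells, which allows up to 0.785 CPM over the class (3 counts), and was at least 32.9-fold lower than in mitotic cells. Most replication-dependent histone mRNAs end in a stem-loop without a poly(A) tail, and capture by a poly(A) primer reads them only in part. When each cell was thinned to 3000 UMIs before the rule was applied, 5 of 12 histone genes tested were higher than in low-replication cells and 1 was lower, and in the depth window 1 of 16 was higher and 1 lower. With that thinning the median log2 fold change of G2 and mitosis genes was also larger, 2.24 over the 40 genes tested there in place of 1.31 over 55. Several of these genes are near-identical copies whose reads the counting could split.

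The control genes of the G1 to S switch moved in both directions. Against low-replication cells 19 of 27 were higher and 3 lower. Among activators, E2f1 had 18.01, 18.6, 8.05 and 12.02 CPM in replicating cells, against 4.01, 3.66, 3.06 and 4.34 CPM in low-replication cells (1.96 ± 0.24, log2 ± SE). Cyclin E1, Ccne1, had 7.004, 7.43, 5.37 and 15.02 CPM in replicating cells, 27.02, 37.2, 35.5 and 28.6 CPM in mitotic cells and 1.29, 0.9399, 1.21 and 1.67 CPM in low-replication cells. Mybl2, the B-Myb factor that carries E2F activity into G2, was higher by 5.59 ± 0.34 (SE), with 73 UMIs in replicating cells and 32 in low-replication cells. Cyclin D2, Ccnd2, had 353, 339, 338 and 445 CPM in replicating cells, 127, 145, 142 and 199.7 CPM in mitotic cells and 350.4, 347, 389 and 490.4 CPM in low-replication cells. It did not pass against low-replication cells (log2 fold change -0.04 ± 0.05, edgeR adjusted p = 0.575) and was higher than in mitotic cells by 1.22 ± 0.06 (SE, adjusted p = 4.51e-11). Among inhibitors, Cdkn1b (p27), which holds resting cells in G0, had 81.05, 79.9, 65.7 and 67.1 CPM in replicating cells, against 161, 155, 166 and 159 CPM in low-replication cells (-1.07 ± 0.08, log2 ± SE). Cdkn2d (p19) and Rbl2 (p130) were the other genes that fell, at -0.81 ± 0.14 and -0.33 ± 0.09 (SE). E2f8 and E2f7, repressors that close the E2F programme, were higher than in low-replication cells (3.88 and 4.04) and lower than in mitotic cells (-3.45 and -2.09, all log2).

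DNA repair genes of S phase were higher in 20 of 22 tested against low-replication cells, with none lower and a median log2 fold change of 2.27. Chek1, the kinase that slows stalled forks, had 20.01, 20.4, 32.2 and 27.04 CPM in replicating cells, against 0.231, 0.247, 0.211 and 0.555 CPM in low-replication cells (6.28 ± 0.31, log2 ± SE). Ung, which cuts uracil out of new DNA, had 108, 91.9, 123 and 109 CPM in replicating cells, 33.9, 28.5, 40.97 and 37.95 CPM in mitotic cells and 5.58, 5.44, 6.33 and 6.01 CPM in low-replication cells. Replicating cells were above both classes in every library, by log2 fold changes of 1.56 ± 0.12 against mitotic cells and 4.25 ± 0.11 against low-replication cells (SE). Tonsl, which reads newly replicated chromatin, was the other repair gene above mitotic cells (0.82 ± 0.25, log2 ± SE), and 10 of 22 were below them. Tonsl did not pass without library 1, 2 or 3 (adjusted p between 0.0742 and 0.187). Of 11 cohesin genes, 7 were higher than in low-replication cells and Nipbl, the loader, was lower (-0.21 ± 0.08, log2 ± SE). In the depth window 5 of the 11 were higher and 1 lower. Nipbl did not pass without library 1, 3 or 4 (adjusted p between 0.0596 and 0.161). Esco2, which locks cohesin on sister strands, had 12.01, 0, 6.71 and 4.01 CPM in replicating cells and 85.5, 110.2, 111 and 108 CPM in mitotic cells, a log2 fold change of -4.27 ± 0.33 (SE).

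Many genes of G2 and mitosis were higher in replicating than in low-replication cells, although the rule asked for 0 UMIs of 3 such genes. Against low-replication cells 36 of 55 were higher and 2 lower, with a median log2 fold change of 1.31. In the depth window 31 of the 55 were higher and 3 lower, with a median of 1.11. Stmn1, which regulates microtubules, had 297, 199, 354 and 260.4 CPM in replicating cells, 1312, 1197, 1399 and 1159 CPM in mitotic cells and 16.9, 18.8, 11.1 and 13.1 CPM in low-replication cells. Cdk1, the mitotic kinase, had 26.02, 14.9, 32.2 and 24.04 CPM in replicating cells, 181, 163, 217 and 196 CPM in mitotic cells and 3.92, 4.01, 4.32 and 3.33 CPM in low-replication cells. Mki67, the common proliferation marker, had 72.04, 36.2, 42.9 and 47.1 CPM in replicating cells, 520.2, 509, 516 and 514 CPM in mitotic cells and 18.3, 26.1, 18.8 and 19.5 CPM in low-replication cells. For these 3 genes replicating cells stood above low-replication cells in every library. The log2 fold changes of Mki67 were 1.31 against low-replication cells and -3.43 against mitotic cells. Cenpa, the centromere histone made in G2, and Pttg1, the securin, were the 2 lower genes (-1.39 ± 0.20 and -0.44 ± 0.09, log2 ± SE). Pttg1 did not pass in the depth window (-0.24, edgeR adjusted p = 0.0899). Cenpa had 21.01, 29.7, 20.1 and 23.04 CPM in replicating cells, against 82.2, 72.7, 52.2 and 51.4 CPM in low-replication cells, and low-replication cells were not asked to lack mitotic genes. Plk1, a kinase of late G2, had 5 UMIs in replicating cells and 515 in mitotic cells. The rule shaped the comparison with mitotic cells, where 53 of 55 were lower, so nothing is read from it.

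Genes of growth and energy supply rose as well, with smaller median fold changes than the fork genes. Of 25 genes of ribosome biogenesis, 18 were higher than in low-replication cells and none lower (median log2 fold change 0.48). In the depth window 17 of the 25 were higher and 1 lower. Srm, spermidine synthase, had 54.03, 58.5, 77.8 and 55.1 CPM in replicating cells, against 19.6, 18.9, 23.4 and 22.6 CPM in low-replication cells (1.57 ± 0.16, log2 ± SE). Myc, which drives this programme, had 26.02, 62.2, 60.4 and 73.1 CPM in replicating cells, against 44.5, 49.5, 54.2 and 48.98 CPM in low-replication cells, and did not pass (0.21 ± 0.16, edgeR adjusted p = 0.327). Of 14 glycolysis genes, 9 were higher and the glucose transporter gene Slc2a3 was lower (-0.59 ± 0.15, log2 ± SE). Slc2a3 did not pass in the depth window (-0.45, edgeR adjusted p = 0.0658), where no glycolysis gene was lower. Tpi1, triose phosphate isomerase, had 197, 191, 169 and 146 CPM in replicating cells, against 53.1, 57.4, 51.8 and 55.4 CPM in low-replication cells (1.74 ± 0.09, log2 ± SE). Of 19 genes of oxidative phosphorylation, 18 were higher with a median log2 fold change of 0.39, led by cytochrome c, Cycs (332 ± 17.8 CPM in replicating cells and 176 ± 8.93 CPM in low-replication cells, SD, n = 4). In the depth window 15 of the 19 were higher and 0 lower. Against mitotic cells 10 of these 19 were lower and 1 higher, and 5 of 25 ribosome biogenesis genes were higher and 3 lower. When each cell was thinned to 3000 UMIs before the rule was applied, 0 of 18 oxidative phosphorylation genes tested were lower than in mitotic cells and 1 was higher, with a median log2 fold change of -0.065 in place of -0.18.

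Genes of quiescence and recirculation fell. Of 19 tested, 18 were lower than in low-replication cells, none was higher and Lef1 did not pass, with a median log2 fold change of -0.77. Il7r, the receptor chain for the survival cytokine IL-7, had 275, 196, 191 and 284 CPM in replicating cells, 90.9, 101, 82.9 and 107 CPM in mitotic cells and 536, 451, 565 and 575 CPM in low-replication cells. The 3 classes did not overlap, and replicating cells were below low-replication cells (-1.12 ± 0.08, edgeR adjusted p = 2.97e-09) and above mitotic cells (1.26 ± 0.10, adjusted p = 2.56e-08, both log2 ± SE). Btg1, an antiproliferative factor, had 1245, 1345, 1073 and 1194 CPM in replicating cells, 1043, 947, 929 and 699.5 CPM in mitotic cells and 2831, 2869.7, 2683 and 2504 CPM in low-replication cells. Bcl2, the survival factor, followed Il7r in order, with 71.1 ± 23.1, 35.9 ± 5.04 and 124 ± 23.5 CPM in replicating, mitotic and low-replication cells (SD, n = 4). S1pr1, the receptor for leaving tissue, its regulator Klf2 and the cyclin Ccng2 did not. They were lower in replicating than in mitotic cells (-1.45, -0.81 and -1.62, log2) as well as low-replication cells (-0.87, -0.67 and -1.15). In the depth window 17 of 19 genes of this list were lower and none higher.

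Many cytokine receptor genes fell with them, 11 of 20 lower than in low-replication cells and 1 higher. In the depth window 9 of the 20 were lower and 0 higher. Il18r1, a chain of the IL-18 receptor, had 70.04, 84.5, 92.6 and 74.1 CPM in replicating cells, against 155, 165, 172 and 142 CPM in low-replication cells (-0.94 ± 0.10, log2 ± SE). The gene that rose was Il2ra, the high-affinity IL-2 receptor chain, with 34.02, 49.2, 29.5 and 33.1 CPM in replicating cells, 19.2, 29.2, 10.9 and 19.3 CPM in mitotic cells and 24.04, 31.7, 25.6 and 21.5 CPM in low-replication cells. Its call against low-replication cells (0.56 ± 0.14, edgeR adjusted p = 0.00442) ended in the depth window (log2 fold change 0.12, adjusted p = 0.623) and among T cells only (0.49, adjusted p = 0.0797). Against mitotic cells 10 of 20 receptor genes were higher and none lower, led by Il7r, Il10ra (1.19, log2) and Il12rb2 (1.05).

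Genes induced by the T cell receptor did not rise as a group. Against low-replication cells 3 of 17 were higher and 8 lower. Egr1, an early response factor, had 42.02, 58.5, 73.8 and 46.1 CPM in replicating cells, against 118, 132, 89.9 and 97.2 CPM in low-replication cells (-0.97 ± 0.15, log2 ± SE). Nr4a1 and Cd69, read soon after receptor engagement, were also lower (-0.37 ± 0.07 and -0.61 ± 0.05). Tnfrsf9 (4-1BB), Tnfrsf4 (OX40) and Irf4 were higher, at 0.83 ± 0.14, 0.44 ± 0.10 and 0.52 ± 0.19 (log2 ± SE). None of these 3 calls stood in the depth window, where the log2 fold changes were 0.21, -0.12 and 0.21 (edgeR adjusted p = 0.456, 0.368 and 0.397). Irf4 did not pass without library 3 (adjusted p = 0.0894) or library 4 (adjusted p = 0.36) either. Immediate early genes that tissue dissociation also induces were lower in 10 of 12 tested, among them Fos (516 ± 68.5 CPM in replicating cells and 890.3 ± 51.7 CPM in low-replication cells, SD, n = 4). The part of dissociation in the fall of Egr1 and Nr4a1 was not tested.

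Of 16 effector cytokine and chemokine genes, 4 were higher (25%) and 4 lower (25%) than in low-replication cells. Over all genes tested the shares were 22.9% and 17.1%, so the list lay near the background. Ccl5, a chemokine of memory and cytotoxic cells, had 1499, 929.7, 1626 and 2098 CPM in replicating cells, 790.4, 842, 1036 and 982 CPM in mitotic cells and 3298, 2877, 3840.3 and 4873 CPM in low-replication cells (-1.24 ± 0.09 against low-replication cells, log2 ± SE). Ifng had 238, 336, 307 and 220.3 CPM in replicating cells, against 288, 333, 326 and 271 CPM in low-replication cells, and did not pass (-0.10 ± 0.13, edgeR adjusted p = 0.585). Ccl4 was lower, with 26.02, 24.1, 16.1 and 173 CPM in replicating cells, against 129, 166, 176 and 291 CPM in low-replication cells. Library 4 stood apart in replicating cells, and without it the log2 fold change was -2.75 in place of -1.66 (edgeR adjusted p = 1.80e-04). Il17a had 78.05, 143, 101 and 314 CPM in replicating cells, 476, 224, 399 and 336 CPM in mitotic cells and 184, 61.7, 68.6 and 88.6 CPM in low-replication cells. Its call against low-replication cells (adjusted p = 0.0455 in edgeR) was lost without library 4 (log2 fold change 0.21, adjusted p = 0.632). It was also lost without library 2 (0.65, adjusted p = 0.193), without library 3 (0.81, adjusted p = 0.0827) and in the depth window (0.13, adjusted p = 0.849). Lta, the fourth gene that was higher (0.82 ± 0.27), did not pass in the depth window (0.43, edgeR adjusted p = 0.297), without library 3 (adjusted p = 0.0711) or without library 4 (adjusted p = 0.0829).

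Several genes, most of them known from recently activated T cells, were high in replicating cells of some libraries. Slc30a3 is placed among them only for its level in these data. Xcl1, a chemokine that calls cross-presenting dendritic cells, had 334, 1111, 714 and 805 CPM in replicating cells, 228, 215, 195 and 249 CPM in mitotic cells and 268, 339, 307 and 338 CPM in low-replication cells. It was higher in 4 of 4 libraries (1.24 ± 0.15 against low-replication cells, edgeR adjusted p = 3.51e-06). Thinned to 3000 UMIs per cell, the share of cells with an Xcl1 UMI was 27.6% ± 5.71 in replicating cells and 28.8% ± 3.30 in low-replication cells. No order is read from that share. Crtam, an adhesion receptor of activated T cells, had 29.02, 87.3, 33.5 and 53.1 CPM in replicating cells, 21.1, 0.664, 8.19 and 28.6 CPM in mitotic cells and 3.51, 4.25, 5.27 and 5.35 CPM in low-replication cells (3.53 ± 0.39 against low-replication cells, log2 ± SE). Ccl1, a chemokine for the receptor CCR8, had 35.02, 113, 25.5 and 189 CPM in replicating cells, 5.404, 0, 7.28 and 85.8 CPM in mitotic cells and 3.64, 9.65, 6.01 and 12.2 CPM in low-replication cells. Slc30a3, a zinc transporter, had 12.01, 39.9, 9.39 and 30.05 CPM in replicating cells, against 1.57, 0.9399, 0.949 and 1.62 CPM in low-replication cells. Cells just outside the rule carried these transcripts as well. Mean levels over libraries were 510 CPM of Xcl1 and 26.6 CPM of Crtam in cells with 5 of the 8 rule genes, and 1070 CPM of Xcl1 and 61.2 CPM of Crtam in cells with 4. Tnfrsf9 averaged 214 CPM in cells with 5 and 278 CPM in cells with 4. Csf2, which encodes GM-CSF, had 57.03, 13.9, 4.02 and 26.04 CPM in replicating cells, against 1.61, 4.11, 2.21 and 3.94 CPM in low-replication cells, with the highest value in library 1. Csf2 did not reach the filter on low counts in the depth window, among T cells only, or when library 1, 2 or 4 was left out, so its call was not repeated there.

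At least 2 of Xcl1, Crtam, Ccl1 and Csf2 were found in 22 of 413 replicating cells and 116 of 14928 low-replication cells at 3000 UMIs. These genes were put together after their values were seen, so the shares are given with no test. The shares were 2.97%, 7.14%, 2.38% and 7.84% of replicating cells in libraries 1 to 4, against 0.781%, 0.691%, 0.672% and 0.961% of low-replication cells. Libraries 2 and 4, where these shares and Crtam, Ccl1 and Slc30a3 were highest, were also those with high plasma cell sums in replicating cells. Among cells with a T cell transcript and 0 UMIs of Cd79a, Jchain, Lyz2 and Epcam, Crtam, Ccl1 and Slc30a3 still passed against low-replication cells (log2 fold changes 3.39, 3.70 and 4.07).

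Interferon response genes were lower than in low-replication cells in 6 of 11 tested, and Ifit2 was higher. Of the genes tested in the depth window, 3 of 13 were lower and none higher, and Isg15 and Ifit1 no longer passed there (log2 fold changes of -0.081 in place of -0.22 and -0.55 in place of -0.85, edgeR adjusted p = 0.378 and 0.112). Without library 1 neither passed (adjusted p = 0.0615 and 0.0523). Against mitotic cells 7 of 11 were higher and none lower, but several of these calls ended under alternatives. DESeq2 called 5 of 11, and 0 of 6 passed after thinning to 3000 UMIs. Isg15 and Isg20 no longer passed without library 2 (adjusted p = 0.103 and 0.0903), without library 4 (0.124 and 0.0699) or without the library block (0.068 and 0.0621). Ifit1 did not pass without library 4 (adjusted p = 0.185) or with the highest doublet scores removed (0.0535). Among genes of apoptosis and the p53 response, 4 of 15 were higher (26.7%) and 3 lower (20%) than in low-replication cells. These shares were near those of all genes tested, 22.9% and 17.1%. Cdkn1a (p21) and Mdm2, targets of p53, did not pass (-0.05 ± 0.08 and -0.11 ± 0.10).

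**Figure D4:**
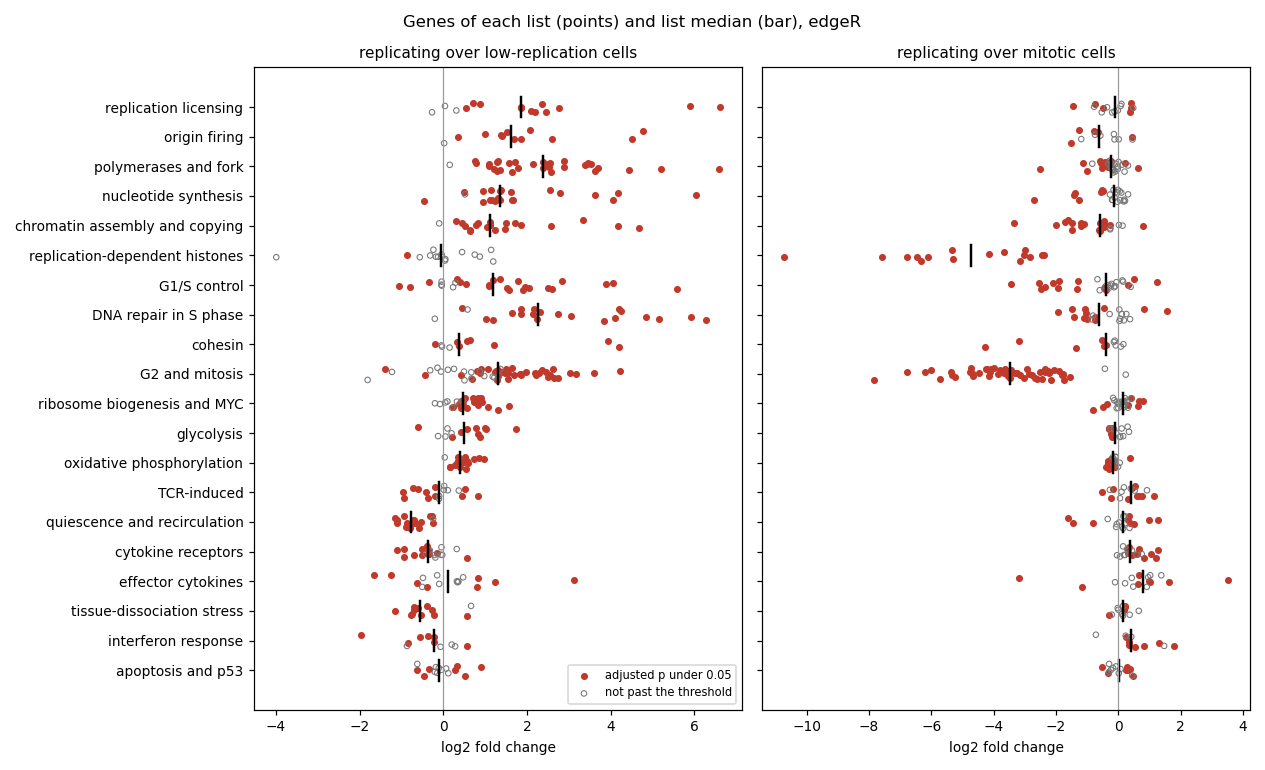
Log2 fold change (horizontal axis) of each tested gene of the 20 lists, in replicating over low-replication cells (left) and replicating over mitotic cells (right). Filled points passed an adjusted p of 0.05 in edgeR, open points did not, and bars are list medians. Polymerase and fork genes (median 2.38) stand to the right of 0 on the left side.

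Of the 10 genes in no list with the largest rises over low-replication cells, 6 are known from DNA repair or chromosome work, a grouping made after their values were seen and with no test. Fignl1, a factor of homologous repair, had 27.02, 26.004, 28.2 and 31.05 CPM in replicating cells, against 0.784, 0.643, 1.11 and 1.21 CPM in low-replication cells (4.94 ± 0.25, log2 ± SE). Spc24 (a kinetochore subunit), Cenps and Cenpm (centromere proteins), Brip1 (a repair helicase) and Ncapg2 (of condensin II) were higher by between 3.86 and 4.75 on that scale. The other 4 of the 10 highest were Slc30a3, Crtam, Ccl1 and Nrgn (3.39 ± 0.45), a calmodulin-binding protein better known from neurons. The lowest was Apoe, a lipid carrier of macrophages, with 4.002, 3.71, 6.71 and 3.005 CPM in replicating cells, against 28.2, 28.6, 25.3 and 12.7 CPM in low-replication cells (-2.46 ± 0.66, log2 ± SE). Myeloid markers, 2 to 4 of 6 at 0, summed to between 135 and 152 CPM in replicating cells and between 151 and 170 CPM in low-replication cells, and their part in the Apoe result was not tested. Tcp11l2 had 21.01, 13.9, 9.39 and 12.02 CPM in replicating cells, against 85.7, 84.2, 74.2 and 58.5 CPM in low-replication cells (-2.36 ± 0.16). Itga1, the collagen-binding integrin chain of tissue-resident cells, had 13.01, 9.29, 18.8 and 9.01 CPM in replicating cells, against 37.8, 31.2, 31.7 and 38.9 CPM in low-replication cells (-1.48 ± 0.20). Kdm5b, a histone demethylase, and Trp53inp1, a p53-induced protein, had log2 fold changes of -1.32 ± 0.16 and -1.31 ± 0.13 (SE). Card6, Pcmtd2, Ifi213, Dtx4 and Phf1 lay between -1.43 and -1.30.

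Against mitotic cells the highest of these genes included Tmem42 (23.01, 27.9, 24.1 and 26.04 CPM in replicating cells and 6.88, 8.63, 2.73 and 7.01 CPM in mitotic cells) and Il1r2, the decoy receptor for IL-1 (1.82 ± 0.35, log2 ± SE). Il1r2 no longer passed in the depth window (log2 fold change 0.92, edgeR adjusted p = 0.358). Gcg, the glucagon gene of gut endocrine cells, had 27.02, 1.86, 181 and 15.02 CPM in replicating cells, 0.491, 0, 19.1 and 0.584 CPM in mitotic cells and 0.554, 9.15, 1.27 and 1.36 CPM in low-replication cells. Library 3 stood far above the others, and among cells with T cell transcripts and no Cd79a, Jchain, Lyz2 or Epcam the call against mitotic cells ended (log2 fold change 1.67 in place of 3.56, edgeR adjusted p = 0.373). It also ended without library 1 (3.25, adjusted p = 0.0843). Epithelial markers, 3 to 5 of 6 at 0, summed to between 16.01 and 24.1 CPM in replicating cells and between 5.89 and 17.3 CPM in mitotic cells, and their part in the Gcg result was not tested. The lowest genes were nearly silent in replicating cells, with 1 UMI of Arhgap19, 5 of Cdkn3, 3 of Hist1h2bb and 2 of Hist1h2af. Mitotic cells held 134, 473, 332 and 165 UMIs of them. Such genes could pass the filter on low counts through mitotic cells alone, and the rule left out cells with mitotic genes. Nothing is therefore read from their fall.

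Markers of several T cell lineages were found in replicating cells, and their shares varied between libraries. Shares are of cells with at least 1 UMI after each cell was thinned to 3000 UMIs, over 413 replicating, 455 mitotic and 14928 low-replication cells. Foxp3, of regulatory T cells, was found in 4.95%, 7.14%, 3.57% and 3.92% of replicating cells, against 6.08%, 8.01%, 6.92% and 3.90% of low-replication cells. Ifng, of Th1 cells, was found in 31.3% ± 2.504 of replicating cells and 28.2% ± 1.40 of low-replication cells, higher in 4 of 4 libraries. Il17a was found in 0.990%, 3.97%, 5.95% and 9.80% of replicating cells, 18.1%, 5.98%, 8.43% and 14.2% of mitotic cells and 3.44%, 2.02%, 1.34% and 1.87% of low-replication cells. Ccr7, which guides T cells to lymph nodes, was found in 0.988% ± 1.40 of replicating cells and 2.91% ± 1.12 of low-replication cells, lower in 4 of 4 libraries. With 4 pairs the exact two-sided sign-flip permutation test cannot go below p = 0.125. Ifng, Ccr7, Il2ra and Pcna reached that value against low-replication cells, which became 0.312 after adjustment over the 10 genes compared. Thinned to 2000 UMIs, Ccr7 was found in 1.53% ± 1.25 of replicating cells and 2.24% ± 0.998 of low-replication cells, lower in 3 of 4 libraries. At that depth Ifng was higher in 3 of 4 libraries and Il2ra in 2 of 4. With no thinning Ccr7 lay the other way, at 4.20% ± 2.53 of replicating cells and 3.08% ± 1.29 of low-replication cells, so no order is read from its share. The differences of Gata3 (19.1% ± 4.98 and 23.5% ± 3.34) and Cd8a (1.83% ± 1.70 and 2.42% ± 1.73) in replicating and low-replication cells lay within or near their spread over libraries. Free RNA in droplets was not measured, since droplets without cells were not analysed here, and its share of these detections is unknown.

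**Figure D5:**
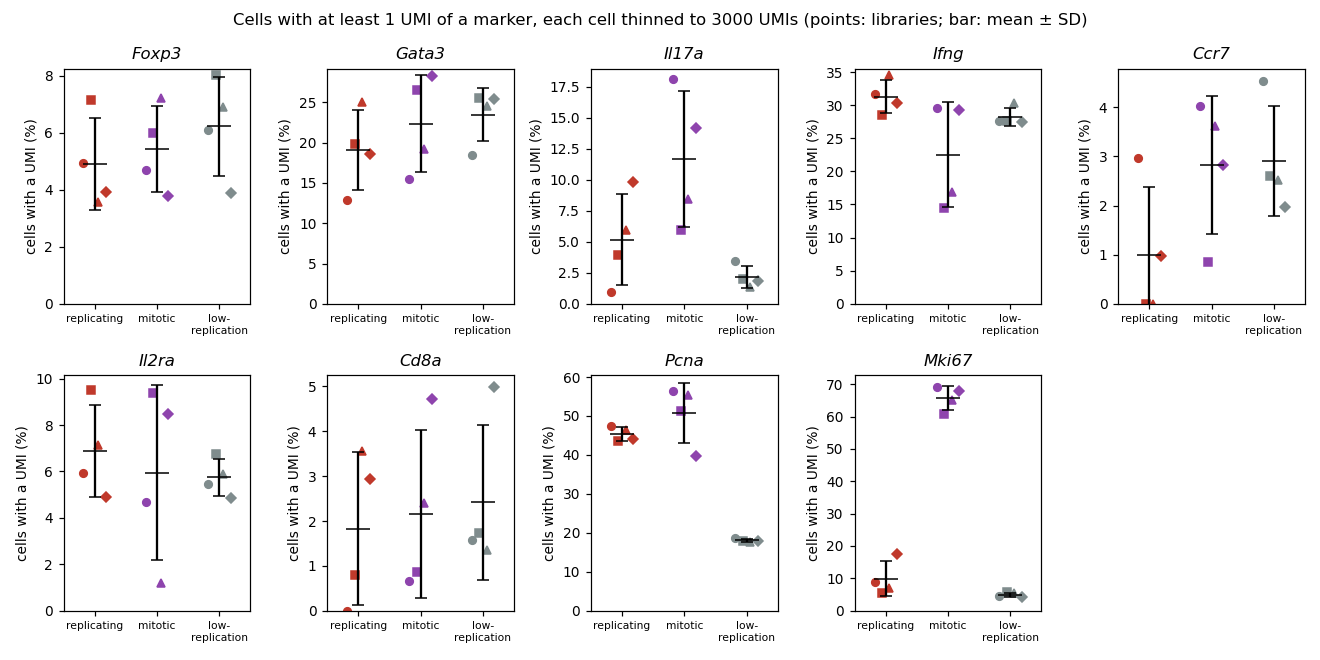
Share of cells with at least 1 UMI (%, vertical axis) of 9 genes in replicating, mitotic and low-replication cells, each cell thinned to 3000 UMIs. Points are libraries and black bars the mean and SD. Mki67 is found in 9.81% of replicating cells, 65.7% of mitotic cells and 4.91% of low-replication cells, and Pcna in 45.4%, 50.7% and 18.0%.

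Replicating cells differed among themselves along the count of rule genes. The comparison is a description, since that count chose the cells and deeper cells reach it more easily. Cells with 7 or 8 of the 8 genes (158 cells) were set beside cells with 5 or 6 (256 cells). Rrm2 stood at 170 ± 29.03 CPM in cells with 7 or 8 and 40.7 ± 19.1 CPM in cells with 5 or 6, and Tk1 at 124 ± 27.9 and 40.6 ± 13.2 CPM. Mki67 stood at 81.3 ± 20.5 and 25.3 ± 12.2 CPM, and Il7r at 166 ± 31.2 and 290.4 ± 60.8 CPM (SD, n = 4 libraries each). E2f1 stood at 15.4 ± 6.47 and 13.1 ± 6.07 CPM and was higher in the cells with 7 or 8 genes in 2 of 4 libraries. Each of Rrm2, Tk1 and Mki67 was higher, and Il7r lower, in the cells with 7 or 8 genes of all 4 libraries.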

How the data were processed

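The study made 4 droplet (10x Genomics, 5′) libraries of sorted CD4 T cells. Per the submitters' processing notes the authors used Cell Ranger 3.0.2 and the mm10 build. The deposited values are raw UMI counts per gene and cell, 31053 genes in 4 matrices, with no normalization. The filter on barcodes asked for 500 genes and 1000 UMIs or more, with 10% or less of the UMIs mitochondrial, and 22534 of 22904 passed it. No doublets were removed; Scrublet scores were an alternative only.

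The members, gene lists and tests were chosen with earlier results of these data known. UMIs were summed per library and class, and CPM is the raw sum per 1e6 UMIs of the class. Tests used edgeR 4.0.16 (quasi-likelihood, TMM scaling, filterByExpr, library as a block, 12 sums, 6 residual degrees of freedom) in R 4.3.3, with Benjamini-Hochberg adjustment over 8963 genes and a threshold of 0.05. The block comes from the design, since each library gives all 3 classes. The 11 rule genes were left out of the tests. The SE of a log2 fold change was its size over the square root of F. The edgeR test against low-replication cells was tried on simulated counts with known fold changes, and no other step was.

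Alternatives were library size alone, DESeq2 1.42.0, no filter, no block, leaving out each library, other limits of the rule, T cells only, a depth window and thinning to 3000 UMIs. Named genes were, per list and comparison, the 4 whose adjusted p was smallest, and outside the lists the 10 highest and 10 lowest (second comparison 5 and 5) that passed, moved one way in all libraries and averaged at least 20 CPM in a class. Predicted, receptor segment, ribosomal protein and mitochondrial genes were left out of this. Other list genes in the text were chosen after their values were seen. Shares used an exact sign-flip permutation test over libraries (NumPy 2.4.6). Promoters are RefSeq's. Results for a few genes are not reported here.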

Additional observations from a re-analysis of the deposited data

Results flagged for a closer look

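Of 167 levels in replicating cells screened for a library far from the other 3 by Dixon's gap test, 13 passed its 95% critical value, where chance gives about 1 in 20. Library 3 was high for Prim1 (93.9 CPM, others between 78.1 and 80.0), Gins1 (28.2 CPM, others between 18.0 and 19.5) and Rmi2 (53.7 CPM, others between 40.9 and 43.0). It was also high for Gcg (181 CPM, others between 1.86 and 27.0) and was the library with the single Arhgap19 UMI (1.34 CPM, others at 0). Library 4 was high for Ccl4 (173.0 CPM, others between 16.1 and 26.0), Ccnd2 (445 CPM, others between 338 and 353) and Il10ra (55.1 CPM, others between 27.0 and 30.9). It was low for Cdc7 (23.0 CPM, others between 26.8 and 27.0) and Smc3 (102 CPM, others between 130 and 132). Library 1 was low for Dusp1 (498 CPM, others between 668 and 682), Isg20 (48.0 CPM, others between 74.1 and 76.5) and Tbx21 (61.0 CPM, others between 71.1 and 72.4). Library 3 had the fewest replicating cells, 84.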

How the results depend on the processing

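Against low-replication cells the counts stayed within 1.5 times of 2055 higher and 1536 lower under every alternative run except thinning to 3000 UMIs before the rule, which called 600 and 483 of 3000 genes tested. Against mitotic cells thinning called 144 higher and 185 lower, and asking for at least 4 of the 8 genes called 1184 higher. Leaving out a library gave between 1688 and 1754 higher and between 1248 and 1380 lower against low-replication cells, and between 525 and 685 higher and between 798 and 912 lower against mitotic cells. Each library gives all classes; without that replicate block the counts were 1957 and 1303 against low-replication cells and 605 and 961 against mitotic cells.

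Members were 1.19% of cells with at least 6 of the 8 genes, 2.57% with at least 4, 0.892% after thinning and 3.65% without the mitotic limit, and between 1.73% and 1.94% without a library. Among genes chosen by the naming rule, 92 kept their call against low-replication cells in the depth window, and Ifit1 and Isg15 did not. Thinning turned the direction against mitotic cells of Cox7a2 (0.10), Eno1 (0.23), Jund (-0.11), Ldha (0.20), Pgk1 (0.024) and Sms (0.059), with the cause not tested; 30 other named genes no longer passed there. Counting error limits genes with few UMIs, and shared barcodes were not removed.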

Other observations

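At 3000 UMIs per cell, members were 0.62% of cells with a Ccr7 UMI and 2.35% of cells without one. They were 5.33% of cells with an Il17a UMI and 2.25% of cells without one, and 1.86% of cells with a Foxp3 UMI and 2.34% of cells without one. These are means over 4 libraries, given with no test. The Il17a shares varied widely, at 0.503%, 4.76%, 7.14% and 8.93% of cells with a UMI and 2.12%, 2.82%, 1.91% and 2.14% of cells without one in libraries 1 to 4. Library 1, with 199 of the 486 cells with an Il17a UMI, thus went the other way. Summed markers of the Th17 list stood between 375 and 567 CPM in replicating cells, 621 and 957 CPM in mitotic cells and 309 and 587 CPM in low-replication cells. Summed Th1 markers stood between 1559.9 and 1723 CPM in replicating cells, 1079.7 and 1273 CPM in mitotic cells and 1625 and 1971 CPM in low-replication cells.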
